A study of Mus musculus with 8 samples.

Results

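The 34 genes described here carry out or support the oxidation of fatty acids in mitochondria (24 genes) and peroxisomes (9 genes), with 1 cytosolic thioesterase. They form a named list drawn up with earlier results of these data known, and the rule uses gene symbols only. All 34 were among the 49585 genes of the count table. Of these, 33 had at least 10 counts over the 8 libraries, and 32 were among the 15255 genes that passed the filter on low counts and were tested. All 32 had at least 10 counts in every library, so none of them passed through 1 group alone.

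RNA was sequenced from 3T3-L1 cells, a mouse preadipocyte line that stores fat after hormonal induction, in 4 groups of 2 libraries on day 7. The groups were 3D induced, 3D uninduced, 2D induced and 2D uninduced. The 3D cultures were hanging-drop spheroids seeded with about 20000 cells in 28 µL of medium, and the 2D cultures were flat dishes. Induction meant 10 µM troglitazone (an agonist of the nuclear receptor PPARγ) and 1 µg/ml insulin for 7 days, with 250 nM dexamethasone (a glucocorticoid) and 10 nM triiodothyronine (thyroid hormone) in the first 2 days. Uninduced cultures received none of the 4 agents. The agents were given together, and the spheroids had only part of their medium exchanged daily, so the agents, and the culture shape and the feeding, cannot be told apart. The labels do not say that the 2 libraries of a group came from separate cultures, and p-values then measure only the spread between these libraries.

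As background, fatty acids enter mitochondria as carnitine esters through CPT1, the carnitine carrier and CPT2. Each turn of β-oxidation then takes an acyl-CoA through a dehydrogenase, a hydratase, a second dehydrogenase and a thiolase, and auxiliary enzymes rearrange double bonds. Peroxisomes shorten very long and branched chains with their own enzymes, ABC transporters bring the acyl-CoAs in, and peroxins import the enzymes and control organelle number. In adipocytes the pathway runs beside fat storage, and many of its genes are known targets of PPAR receptors.

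The libraries held 11839374 to 21169390 counts, so that 1 count was worth 0.0498 to 0.0893 CPM (counts per 1000000, on library sizes scaled by the TMM method). Replicates were least alike in 3D induced cultures, where 14.2% of tested genes lay at least 2-fold apart between the 2 libraries, against 2.49 to 3.68% in the other groups. Adipocyte markers (Adipoq, Plin1, Fabp4, Cidec, Cd36 and Lipe) summed to 1555 and 2691 CPM in 3D induced, 79.9 and 75.3 CPM in 3D uninduced, 6265 and 5805 CPM in 2D induced, and 38.4 and 35.1 CPM in 2D uninduced libraries. Fabp4 was the largest single part of this sum in each library. Preadipocyte and fibroblast markers were Dlk1, Pdgfra, Pdgfrb, Thy1, Col1a1 and Col3a1. Their sum, mostly Col1a1 and Col3a1, was 12807 and 4713 CPM in 3D induced, 9892 and 11282 CPM in 3D uninduced, 16745 and 16254 CPM in 2D induced, and 26766 and 27527 CPM in 2D uninduced libraries. With and without induction, 5 of the 6 were fitted lower and 1, Pdgfrb, higher in 3D than in 2D cells. Thy1 had 308 and 332 CPM in 2D induced and 320 and 324 CPM in 2D uninduced libraries. Of the defining markers of other cell types, Ptprc and Adgre1 (macrophage), Myod1 and Myog (muscle) and Ttr (hepatocyte) had 0 counts in all 8 libraries. Whole marker lists summed to 11.8 to 24.9 CPM for macrophages, mostly Csf1r, Cd68 and Lyz2, and to at most 1.99 CPM for endothelium, 3.86 CPM for muscle and 0.0893 CPM for hepatocytes. Cartilage and bone markers, nearly all Sox9 and Runx2, summed to 187 and 141 CPM in 3D induced, 214 and 182 CPM in 3D uninduced, 97.3 and 106 CPM in 2D induced, and 139 and 138 CPM in 2D uninduced libraries. The part that these markers, the share of adipocytes or the spread of the spheroid replicates have in the results below was not tested. In bulk RNA, fewer cells of a type and less RNA per cell cannot be told apart.

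On induction, fatty acid oxidation transcripts rose in flat culture for 7 of 23 tested mitochondrial genes and 4 of 8 tested peroxisomal genes. Of the 32 tested genes, 11 were called higher and 0 lower in 2D induced against 2D uninduced cells, where a called gene differs 2-fold or more with its adjusted p below 0.05 (edgeR's quasi-likelihood test, two-sided, Benjamini-Hochberg adjustment over all 15255 genes). Over all tested genes 3.17% were called higher and 1.34% lower. By adjusted p alone 22 were higher, against 5.91% of all genes. In spheroids 2 genes were called higher on induction and 0 lower, against 0.583% of all genes called higher and 0.328% lower, and 7 were higher by adjusted p alone, against 0.859%. At an unadjusted p under 0.05 edgeR had 23 genes higher and 0 lower in spheroids, and 27 higher and 1 lower in flat culture, and DESeq2 also called 0 lower in either. At that p, 6.96% of all genes were higher in spheroids and 13.0% in flat culture. The median log2 fold change of the 23 tested mitochondrial genes was 0.60 in spheroids, beside 0.04 over all genes, and 0.87 in flat culture, beside 0.00. That of the 8 tested peroxisomal genes was 0.19 in spheroids and 0.67 in flat culture.

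Summed over the mitochondrial genes, the level was 2117 and 2386 CPM in 3D induced, 1519 and 1645 CPM in 3D uninduced, 3073 and 3076 CPM in 2D induced, and 1753 and 1767 CPM in 2D uninduced libraries. The peroxisomal genes summed to 699 and 701 CPM in 3D induced, 571 and 631 CPM in 3D uninduced, 963 and 950 CPM in 2D induced, and 581 and 592 CPM in 2D uninduced libraries. In both compartments the 2D induced libraries were the highest and the 3D induced libraries came next, with no overlap between any pair of groups except peroxisomal 3D uninduced and 2D uninduced.

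**Figure D1:**
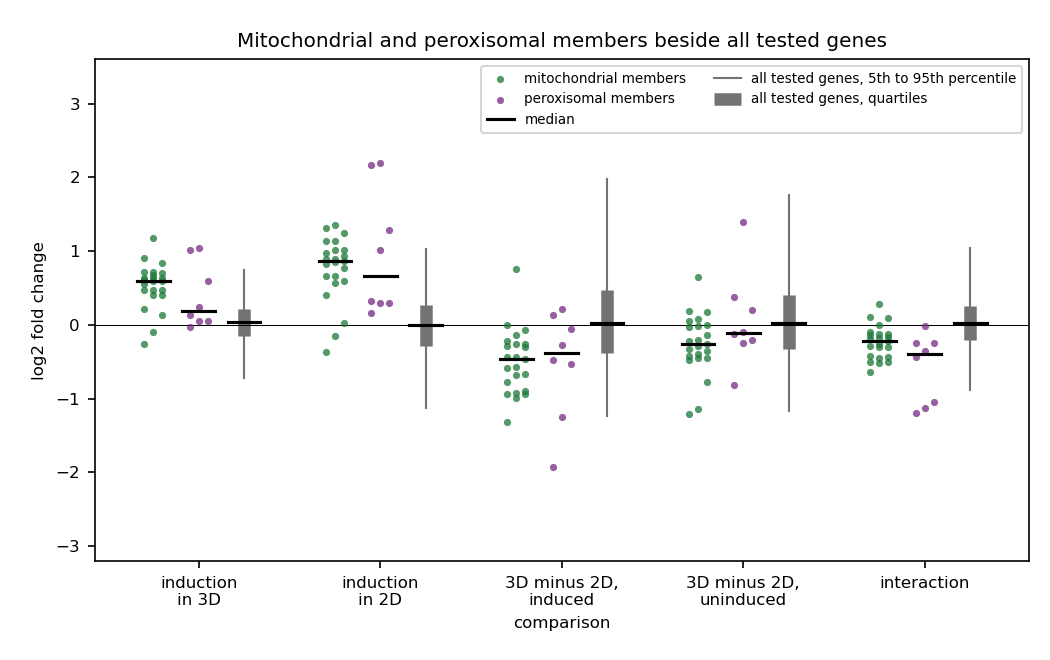
Log2 fold change of each mitochondrial (green) and peroxisomal (purple) fatty acid oxidation gene in the 5 comparisons, 1 point per tested gene with medians as black bars, beside all tested genes (grey, the box from the lower to the upper quartile, the thin line from the 5th to the 95th percentile). On induction the mitochondrial median is 0.60 in 3D and 0.87 in 2D, and the last column is the difference of the inductions.

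**Figure D2:**
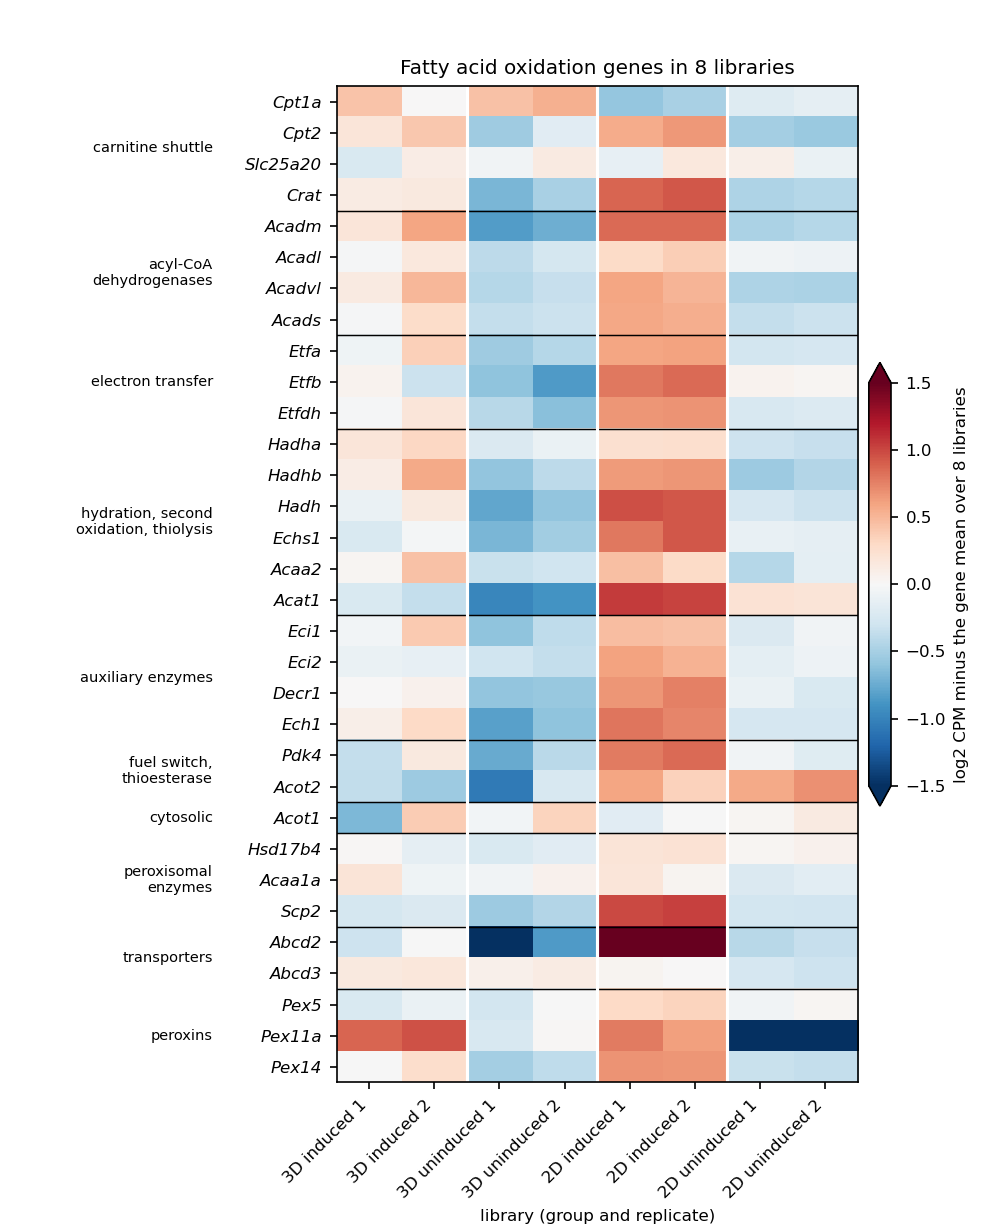
Level of each tested gene in each of the 8 libraries, as log2 CPM minus the mean of that gene over the libraries, with genes in rows grouped by role and libraries in columns. Most rows are highest in both 2D induced libraries, while Cpt1a is lowest there and Pex11a is lowest in both 2D uninduced libraries.

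The carnitine shuttle did not move as 1 block. Cpt1a encodes the liver-type outer membrane carnitine palmitoyltransferase that controls entry into mitochondria. It had 229 and 172 CPM in 3D induced, 231 and 247 CPM in 3D uninduced, 114 and 122 CPM in 2D induced, and 149 and 156 CPM in 2D uninduced libraries. Spheroid libraries lay above flat ones in both states, by 0.76 ± 0.15 (log2 fold change ± standard error of the model) with induction (adjusted p = 0.00809) and by 0.65 ± 0.14 without (adjusted p = 0.0187), both under 2-fold. Its induction change missed the threshold, at -0.26 ± 0.14 in spheroids (adjusted p = 0.552) and -0.37 ± 0.14 in flat culture (adjusted p = 0.173). In both forms the induced libraries were the lower ones without overlap, in spheroids by the narrow gap of 229 against 231 CPM. Over all tested genes, 14.6% were lower without overlap in spheroids and 34.5% in flat culture. Cpt1b, the muscle-type form, had 17 counts in all (3 and 3 counts in 3D induced, 4 and 6 counts in 3D uninduced, 1 and 0 counts in 2D induced, 0 and 0 counts in 2D uninduced libraries) and was not tested. Most of its exon bases, 81.4%, are shared with the gene model Gm44502, which is not among the genes of the count table.

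Cpt2, the inner membrane transferase that returns the chain to CoA, had 50.4 and 58.5 CPM in 3D induced, 30.5 and 39.3 CPM in 3D uninduced, 65.0 and 69.3 CPM in 2D induced, and 31.0 and 30.0 CPM in 2D uninduced libraries. It rose in flat culture by 1.14 ± 0.15 (adjusted p = 0.00421), and its spheroid change of 0.64 ± 0.15 missed the threshold (adjusted p = 0.103). The induced spheroid libraries were higher without overlap, as for 18.0% of all tested genes. Crat encodes carnitine acetyltransferase, which buffers acetyl-CoA as acetylcarnitine. Its level was 131 and 133 CPM in 3D induced, 74.9 and 86.1 CPM in 3D uninduced, 220 and 230 CPM in 2D induced, and 87.4 and 89.5 CPM in 2D uninduced libraries. Crat rose in flat culture by 1.35 ± 0.11 (adjusted p = 0.000383), and in spheroids it was 0.71 ± 0.11 higher, under 2-fold (adjusted p = 0.025). The carrier Slc25a20, which exchanges acylcarnitine for carnitine, stayed within 17.5 to 22.8 CPM in all 8 libraries, and its groups overlapped in each comparison.

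**Figure D3:**
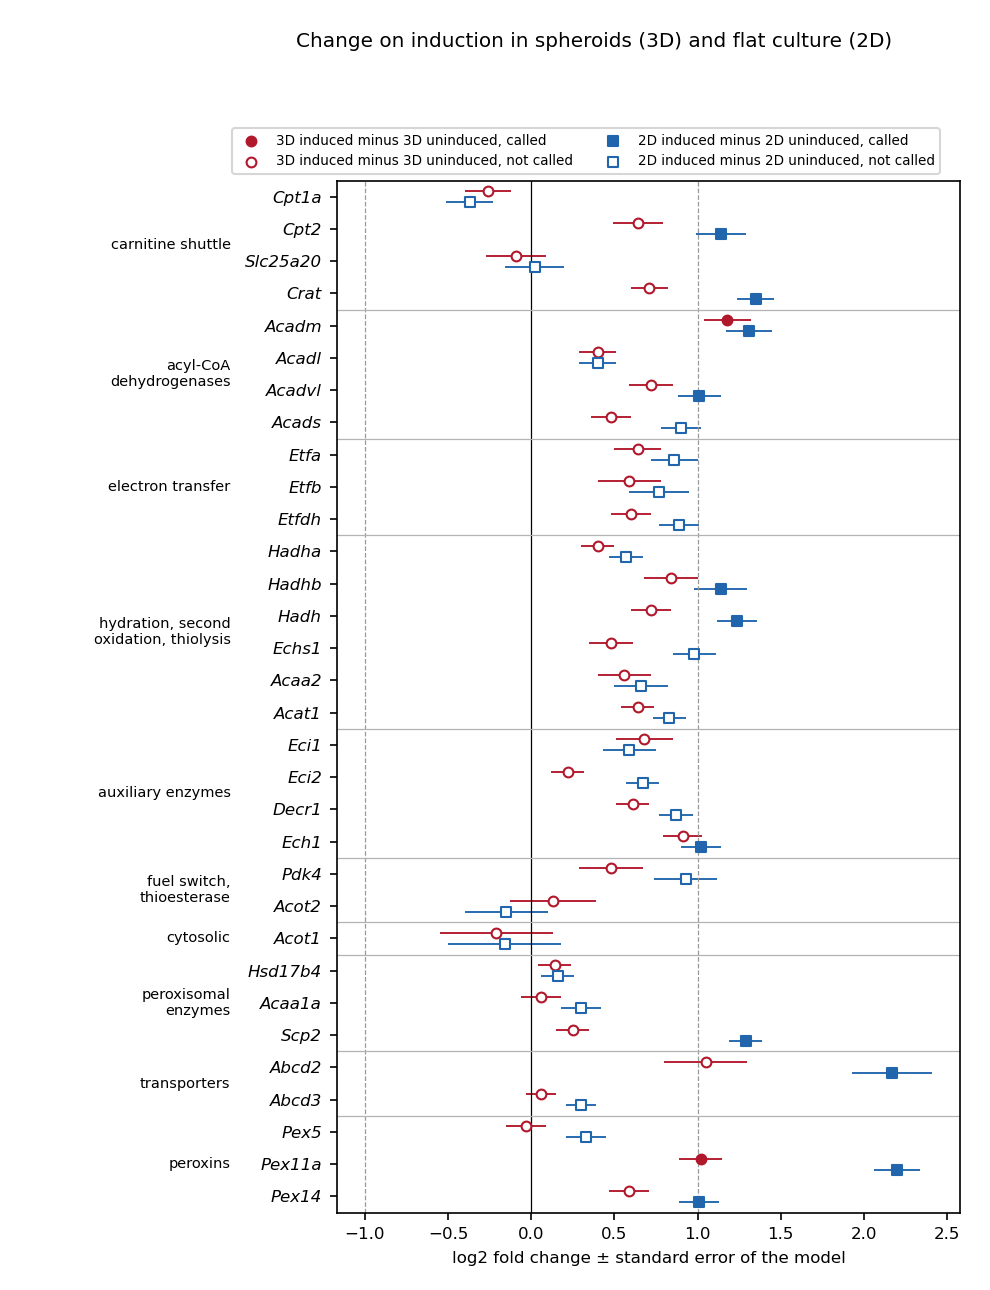
Log2 fold change on induction of each tested gene, with the standard error of the model as bars, in spheroids (red circles) and flat culture (blue squares). Filled symbols are called genes, and dashed lines mark a 2-fold change. Acadm and Pex11a are filled in spheroids, and 11 genes in flat culture.

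The acyl-CoA dehydrogenases, which open each cycle and differ in the chain length they take, all 4 had higher values in the induced libraries without overlap, in both culture forms. Over all tested genes, 18.0% were higher without overlap in spheroids and 35.1% in flat culture. Acadm, the medium-chain enzyme, had 112 and 148 CPM in 3D induced, 55.3 and 59.4 CPM in 3D uninduced, 178 and 178 CPM in 2D induced, and 70.8 and 73.0 CPM in 2D uninduced libraries. It was the 1 mitochondrial gene called in both culture forms, with a rise of 1.18 ± 0.14 in spheroids (adjusted p = 0.0137) and 1.31 ± 0.14 in flat culture (adjusted p = 0.00171). The spheroid call of Acadm was lost in the fit of the 4 spheroid libraries alone and in other settings given below. Acadvl, the very-long-chain enzyme, had 165 and 212 CPM in 3D induced, 112 and 118 CPM in 3D uninduced, 226 and 214 CPM in 2D induced, and 109 and 108 CPM in 2D uninduced libraries. Acadvl rose in flat culture by 1.01 ± 0.13 (adjusted p = 0.00403), just past 2-fold, and the spheroid value of 0.72 ± 0.13 had an adjusted p of 0.0519. Of the Acadvl exon bases, 42.9% lie opposite exons of Dvl2, whose own level ran from 126 to 182 CPM. Whether the counting used strand is not given in the sources used here. Acads, the short-chain enzyme, was 0.90 ± 0.12 higher in 2D induced cells, under 2-fold (adjusted p = 0.00432). Acadl, the long-chain enzyme, had 138 and 156 CPM in 3D induced, 106 and 116 CPM in 3D uninduced, 171 and 180 CPM in 2D induced, and 135 and 132 CPM in 2D uninduced libraries, and passed the test in no comparison.

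Acadm and Pex11a, the pair called on induction in both culture forms, are shown by the 250 bases before their RefSeq start sites (GRCm38.p6, minus strand, chr3:153944644-153944893 and chr7:79743132-79743381), with the hexamer AGGTCA or its reverse complement in capitals. AGGTCA is the core of nuclear receptor sites, and AGGTCANAGGTCA, 2 copies 1 base apart, is the DR1 element that PPAR dimers are known to bind.
Acadm: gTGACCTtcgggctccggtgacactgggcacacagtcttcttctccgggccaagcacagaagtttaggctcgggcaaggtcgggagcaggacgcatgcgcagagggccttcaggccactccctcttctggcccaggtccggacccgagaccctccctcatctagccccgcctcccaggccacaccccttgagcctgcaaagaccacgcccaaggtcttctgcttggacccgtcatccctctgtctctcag
Pex11a: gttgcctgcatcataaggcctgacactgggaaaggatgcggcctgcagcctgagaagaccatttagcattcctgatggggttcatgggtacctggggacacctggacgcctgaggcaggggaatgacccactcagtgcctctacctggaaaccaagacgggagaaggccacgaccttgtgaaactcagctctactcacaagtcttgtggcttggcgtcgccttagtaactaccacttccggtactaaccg
The Acadm stretch holds 1 hexamer at its far end, and these letters are not in the Pex11a stretch.

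RefSeq windows of 250 bases before to 50 after a start were available for 27 of the 34 genes (30 windows, against 32851 windows of all genes). The hexamer AGGTCA, searched on both strands, was in 16.7% of the members' windows (Acadm, Acadvl, Cpt1a, Echs1 and Scp2) and in 16.3% of all windows. The DR1 element, searched with at most 2 mismatches, contains the hexamer where a copy is exact. It was in 10% of the members' windows (3 of 30) and in 3.86% of all windows. The 3 sites are shown with 8 bases on each side and the element in capitals, at chr7:140116484-140116512 (minus strand), chr9:55512300-55512328 (plus strand) and chr9:108662134-108662162 (plus strand). Their centres lie at -77, -71 and 12 bases from the start.
Echs1: gcccgctcAGGTCACGGGTCCacccctta
Etfa: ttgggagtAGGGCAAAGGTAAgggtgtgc
Slc25a20: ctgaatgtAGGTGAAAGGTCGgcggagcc
None of these 3 genes was called in any of the 5 comparisons as reported. By edgeR's adjusted p alone, 2 of them were higher on induction in flat culture, under 2-fold. They were Echs1 (0.98 ± 0.13, adjusted p = 0.00373) and Etfa (0.86 ± 0.14, adjusted p = 0.0109). Slc25a20 stood at 0.02 ± 0.18 there. The GC box GGGCGG, on either strand, was in 73.3% of the members' windows and in 35.7% of all windows. A match describes the letters only, and no binding was measured.

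Electrons from the dehydrogenases pass through the flavoproteins Etfa and Etfb to Etfdh, which hands them to ubiquinone. None of the 3 was called on induction. By adjusted p they were 0.77 to 0.89 higher in 2D induced cells, while the values of 0.59 to 0.64 in spheroids did not pass. Etfb had 12.5 and 9.60 CPM in 3D induced, 7.89 and 6.69 CPM in 3D uninduced, 20.8 and 21.6 CPM in 2D induced, and 12.5 and 12.3 CPM in 2D uninduced libraries. Etfb shares 53.0% of its exon bases with Gm45233 on the same strand, a gene listed with 0 counts in all 8 libraries. How reads in shared bases were counted is not given in the sources used here, and the level of Etfb could depend on it.

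The remaining steps of the cycle are hydration, the second oxidation and thiolysis. Hadha and Hadhb encode the α and β subunits of the mitochondrial trifunctional protein, and their genes lie head to head on chromosome 5. The 85 bases between them are printed from the RefSeq windows on the plus strand (GRCm38.p6, chr5:30155163-30155247) with the GC box in capitals, because this short stretch is upstream of both.
Hadhb: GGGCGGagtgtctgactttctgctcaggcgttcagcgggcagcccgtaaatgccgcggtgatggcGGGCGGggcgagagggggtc
Hadha had 207 and 227 CPM in 3D induced, 157 and 171 CPM in 3D uninduced, 216 and 218 CPM in 2D induced, and 147 and 144 CPM in 2D uninduced libraries. Its change in flat culture was 0.57 ± 0.10 (adjusted p = 0.0143), under 2-fold. Hadhb had 67.3 and 92.7 CPM in 3D induced, 41.4 and 47.8 CPM in 3D uninduced, 97.2 and 98.8 CPM in 2D induced, and 42.7 and 46.2 CPM in 2D uninduced libraries. Hadhb rose in flat culture by 1.14 ± 0.16 (adjusted p = 0.00597), and its spheroid change of 0.84 ± 0.16 did not pass (adjusted p = 0.0571). The pair thus stood on different sides of the 2-fold line in flat culture, and the difference between their changes was not tested. Of the Hadhb transcript's 50-base stretches, 19.7% occur in other genes, mainly the copy Gm13910, which was 1.14 higher on induction in flat culture itself (adjusted p = 0.0181).

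Hadh, the short-chain 3-hydroxyacyl-CoA dehydrogenase, had 91.5 and 109 CPM in 3D induced, 57.1 and 64.9 CPM in 3D uninduced, 192 and 188 CPM in 2D induced, and 82.2 and 78.7 CPM in 2D uninduced libraries. It rose in flat culture by 1.24 ± 0.12 (adjusted p = 0.00118), and was 0.72 ± 0.12 higher in spheroids, under 2-fold (adjusted p = 0.039). The short-chain hydratase Echs1 came close to the 2-fold line, at 0.98 ± 0.13 in flat culture (adjusted p = 0.00373). Acaa2, the mitochondrial thiolase, was 0.66 ± 0.16 higher there (adjusted p = 0.0452).

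Acat1 encodes the acetoacetyl-CoA thiolase, which also serves ketone body and isoleucine metabolism and was called between the culture forms in both states. Its level was 128 and 117 CPM in 3D induced, 76.2 and 80.8 CPM in 3D uninduced, 310 and 302 CPM in 2D induced, and 174 and 171 CPM in 2D uninduced libraries. No group overlapped another, and even the induced spheroids lay below the uninduced flat cells. It was lower in spheroids than in flat culture with induction, at -1.32 ± 0.10 (adjusted p = 0.000377), and without, at -1.14 ± 0.10 (adjusted p = 0.000696). On induction Acat1 was 0.64 ± 0.10 higher in spheroids and 0.83 ± 0.10 higher in flat culture (adjusted p = 0.0305 and 0.00273), both under 2-fold. With library totals in place of TMM sizes the call without induction was lost.

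Among the auxiliary enzymes for unsaturated chains, Ech1, which shifts conjugated double bonds, had 119 and 138 CPM in 3D induced, 63.7 and 73.6 CPM in 3D uninduced, 195 and 186 CPM in 2D induced, and 93.6 and 94.1 CPM in 2D uninduced libraries. It rose in flat culture by 1.02 ± 0.12 (adjusted p = 0.00243), and its spheroid value of 0.91 ± 0.12 (adjusted p = 0.0175) was under 2-fold. Decr1, the 2,4-dienoyl-CoA reductase, was 0.61 ± 0.10 higher in spheroids (adjusted p = 0.0374) and 0.87 ± 0.10 higher in flat culture (adjusted p = 0.00244). The isomerase Eci2 was 0.67 ± 0.10 higher in 2D induced cells (adjusted p = 0.00651). Eci1, the other isomerase, had 51.5 and 69.8 CPM in 3D induced, 34.9 and 40.8 CPM in 3D uninduced, 73.1 and 72.1 CPM in 2D induced, and 45.6 and 51.2 CPM in 2D uninduced libraries, and it passed no test.

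Pdk4, the kinase that shuts pyruvate dehydrogenase and so favours fat as fuel, had 53.6 and 76.1 CPM in 3D induced, 40.8 and 51.9 CPM in 3D uninduced, 118 and 124 CPM in 2D induced, and 66.2 and 60.7 CPM in 2D uninduced libraries. It was 0.93 ± 0.19 higher on induction in flat culture (adjusted p = 0.0221), under 2-fold, and 0.48 ± 0.19 in spheroids did not pass (adjusted p = 0.333). The thioesterases release free acids from acyl-CoA. Acot2, the mitochondrial form, had 11.4 and 10.1 CPM in 3D induced, 7.08 and 12.5 CPM in 3D uninduced, 22.2 and 18.7 CPM in 2D induced, and 21.9 and 23.7 CPM in 2D uninduced libraries. Its groups overlapped in both inductions, and it was lower in 3D uninduced than in 2D uninduced cells by the test, at -1.21 ± 0.26 (adjusted p = 0.0159), and -0.93 ± 0.26 with induction was under 2-fold (adjusted p = 0.0312). Without either 2D uninduced library, or without 3D uninduced replicate 1, the Acot2 call was lost. Acot1, its cytosolic copy 15616 bases away on chromosome 12, stayed within 3.38 to 7.02 CPM. Of the Acot2 transcript's 50-base stretches, 27.7% occur in other genes, mostly Acot1, so reads of the pair could be split.

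In flat culture, peroxisomal genes fell into a group with large induction changes and a group with small ones. Of the 8 tested, Scp2, Abcd2, Pex11a and Pex14 were called higher there, and the other 4 (Hsd17b4, Acaa1a, Abcd3 and Pex5) passed in neither induction. In spheroids Pex11a alone was called, and the value of Scp2 was only 0.25 ± 0.10. Ehhadh, the peroxisomal bifunctional enzyme that liver induces strongly, had 4 counts in all 8 libraries and was left out. Hsd17b4, the second bifunctional enzyme, stayed within 82.1 to 112 CPM, and Acaa1a, the thiolase for straight chains, within 104 to 139 CPM. Pex5, the import receptor, ran from 111 to 169 CPM, highest in both 2D induced libraries.

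Scp2 encodes from 1 gene a sterol carrier protein and, from an earlier start, the thiolase SCPx for branched chains, and gene counts do not separate them. It had 101 and 104 CPM in 3D induced, 83 and 89.5 CPM in 3D uninduced, 240 and 247 CPM in 2D induced, and 100 and 99.1 CPM in 2D uninduced libraries. The 2D induced libraries stood apart, and the other 6 lay within 83 to 104 CPM. Scp2 rose in flat culture by 1.29 ± 0.10 (adjusted p = 0.000305), its spheroid value of 0.25 ± 0.10 did not pass (adjusted p = 0.339), and it was lower in 3D induced than in 2D induced cells, at -1.25 ± 0.10 (adjusted p = 0.000437). A test of the difference between the inductions gave -1.04 ± 0.14 (adjusted p = 0.0296), and Scp2 was the 1 gene of the 32 called there, against 0.341% of all genes called lower and 0.0393% higher. That call was lost without any 1 of the 6 libraries outside the 3D induced group and held without either 3D induced library. Of its 50-base stretches, 29.7% occur in the copy Scp2-ps2, which had 5.89 and 6.55 CPM in 3D induced, 5.46 and 5.38 CPM in 3D uninduced, 15.7 and 15.9 CPM in 2D induced, and 6.02 and 5.58 CPM in 2D uninduced libraries.

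Abcd2, a peroxisomal transporter of very-long-chain acyl-CoAs, had the widest range of the set beside Pex11a. Its level was 11.8 and 14.5 CPM in 3D induced, 4.65 and 8.07 CPM in 3D uninduced, 50.9 and 49.9 CPM in 2D induced, and 10.9 and 11.5 CPM in 2D uninduced libraries. It rose in flat culture by 2.17 ± 0.24 (adjusted p = 0.00178), and it was lower in 3D induced than in 2D induced cells, at -1.93 ± 0.24 (adjusted p = 0.0017). The spheroid induction value of 1.05 ± 0.25 was past 2-fold but not the test (adjusted p = 0.103). The induced spheroid libraries were higher without overlap, as for 18.0% of all tested genes. Abcd3, the more general transporter, moved little: it had 101 and 103 CPM in 3D induced, 96.1 and 99.5 CPM in 3D uninduced, 93.5 and 91.4 CPM in 2D induced, and 76.4 and 73.6 CPM in 2D uninduced libraries. It was 0.38 ± 0.09 higher in 3D uninduced than in 2D uninduced cells (adjusted p = 0.0259), under 2-fold.

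Pex11a, the inducible peroxin that drives peroxisome proliferation, showed a different order of groups. It had 75.9 and 80.5 CPM in 3D induced, 35.3 and 42.0 CPM in 3D uninduced, 71.5 and 63.8 CPM in 2D induced, and 14.6 and 14.8 CPM in 2D uninduced libraries. Spheroids without induction were already above flat cells, by 1.39 ± 0.13 (adjusted p = 0.00103), while with induction the difference of 0.21 ± 0.13 did not pass (adjusted p = 0.243). It rose on induction by 1.02 ± 0.13 in spheroids (adjusted p = 0.0149) and by 2.20 ± 0.14 in flat culture (adjusted p = 0.000152). The difference between these inductions, -1.19 ± 0.18, missed the threshold (adjusted p = 0.0548). The spheroid induction call was lost with DESeq2 and with library totals in place of TMM sizes. It was also lost in the fit of the 4 spheroid libraries alone and in other settings given below. On chromosome 7 Pex11a lies 3053 bases from Plin1, the lipid droplet coat gene and an adipocyte marker, on the same strand. Plin1 had 116 and 107 CPM in 3D induced, 5.82 and 8.07 CPM in 3D uninduced, 254 and 255 CPM in 2D induced, and 0.0498 and 0 CPM in 2D uninduced libraries. Both neighbours were thus higher in 3D uninduced than in 2D uninduced libraries without overlap, as were 38.1% of all tested genes.

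Pex14, the docking protein of the import pore, had 58.4 and 70.6 CPM in 3D induced, 41.1 and 44.9 CPM in 3D uninduced, 93.7 and 92.5 CPM in 2D induced, and 46.4 and 45.7 CPM in 2D uninduced libraries. It rose in flat culture by 1.01 ± 0.12 (adjusted p = 0.00294), just past 2-fold, and 0.59 ± 0.12 in spheroids did not pass (adjusted p = 0.075). The antisense model Gm17029 covers 28.3% of its exon bases and had 38.0 and 45.4 CPM in 3D induced, 26.7 and 27.7 CPM in 3D uninduced, 58.2 and 60.1 CPM in 2D induced, and 29.1 and 30.2 CPM in 2D uninduced libraries, so the pair moved in the same order. Without a stated strand setting, reads of the pair cannot be told apart.

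**Figure D4:**
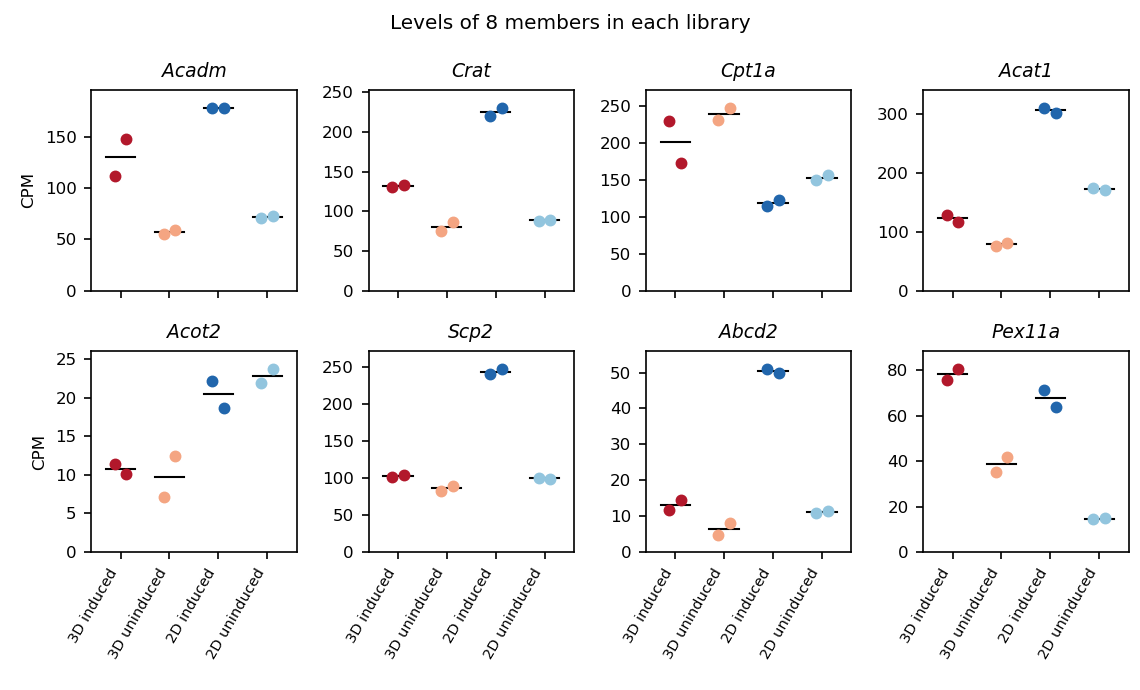
CPM per library of 8 genes that the results turn on, in 4 groups of 2 libraries, 1 point per library with the group mean as a line and each vertical axis starting at 0. Scp2 and Abcd2 are high in the 2D induced libraries alone, Acat1 is lower in both spheroid groups, and Pex11a is low in the 2D uninduced libraries alone (14.6 and 14.8 CPM).

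Comparing culture forms directly, fatty acid oxidation genes were on balance lower in spheroids. With induction, 3 of 32 genes were called lower in 3D than in 2D cells (Acat1, Scp2 and Abcd2) and 0 higher, against 5.46% of all genes called lower and 6.94% higher. DESeq2 called 4 lower and 0 higher, and at an unadjusted p under 0.05 edgeR had 1 higher and 20 lower, against 22.3% and 20.3% of all genes. By adjusted p alone 17 were lower and 1, Cpt1a, higher, against 14.0% and 14.7% of all genes. These 17 included Hadh (-0.92 ± 0.12, adjusted p = 0.00222), Echs1 (-0.99 ± 0.13, adjusted p = 0.00208), Crat (-0.77 ± 0.11, adjusted p = 0.00251) and Pdk4 (-0.90 ± 0.18, adjusted p = 0.0109). The median was -0.46 for mitochondrial and -0.37 for peroxisomal genes, beside 0.03 over all genes. Without 3D induced replicate 1 the mitochondrial median was -0.28, and without replicate 2 it was -0.66.

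Without induction the difference was smaller. Pex11a was called higher in 3D than in 2D uninduced cells, Acat1 and Acot2 lower, and the other 29 tested genes were not called, against 5.42% of all genes called higher and 4.02% lower. By adjusted p alone 3 genes were higher (Cpt1a, Abcd3 and Pex11a) and 6 lower, against 10.9% and 10.2% of all genes. The 6 were Acat1, Acot2, Etfb (-0.77 ± 0.19), Echs1 (-0.48 ± 0.13), Ech1 (-0.45 ± 0.12) and Decr1 (-0.42 ± 0.10). The median was -0.26 for mitochondrial and -0.11 for peroxisomal genes, beside 0.03 over all genes. With library totals in place of TMM sizes the median over all genes moved to 0.20, the mitochondrial median to -0.08 and the peroxisomal one to 0.06, so the sign of the last depends on scaling.

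**Figure D5:**
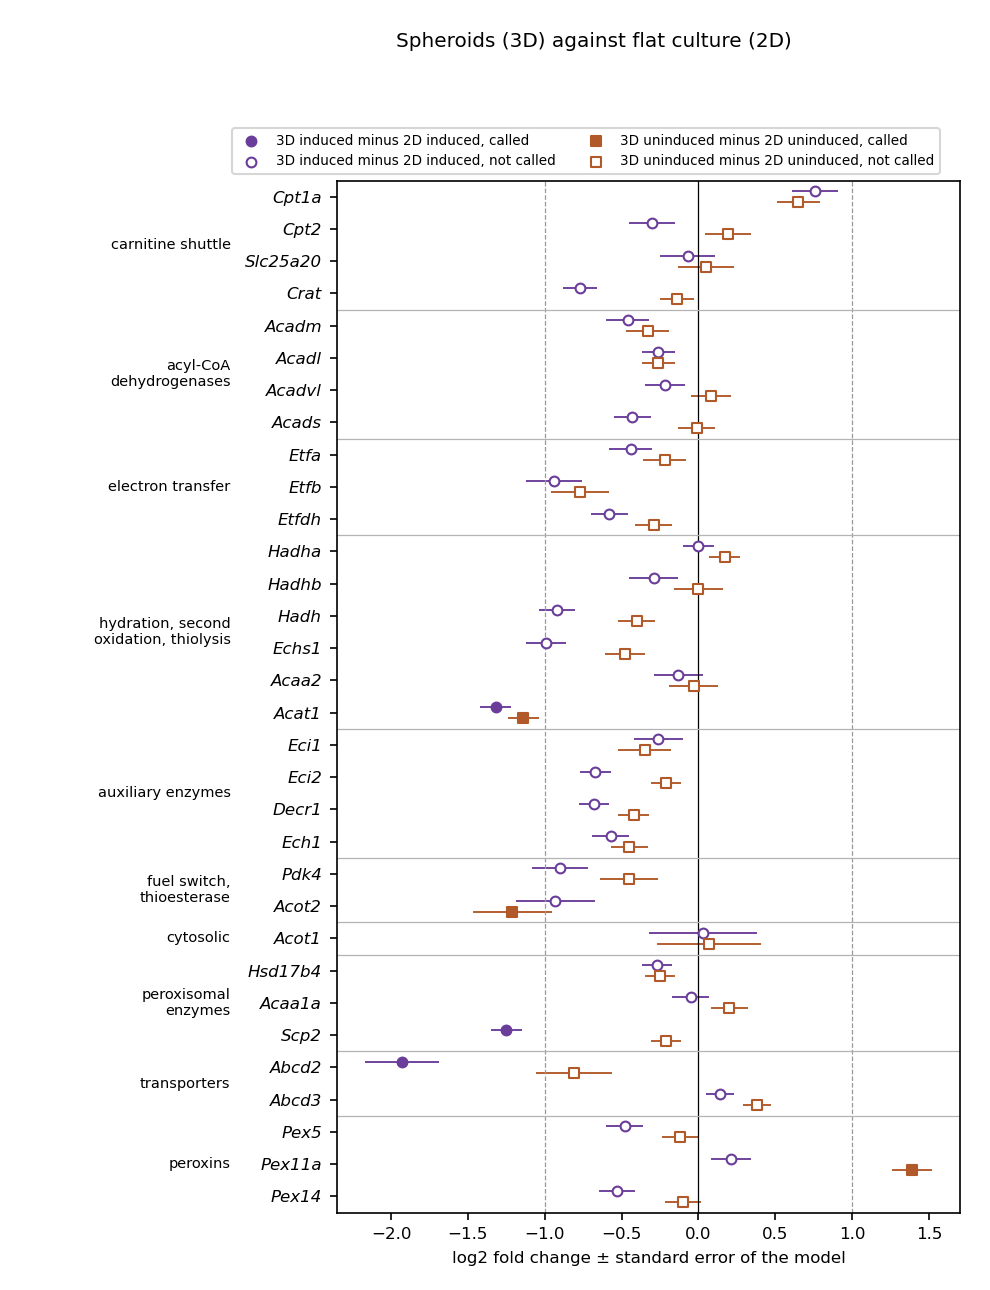
Log2 fold change of spheroids over flat culture for each tested gene, with the standard error of the model as bars, with induction (purple circles) and without (brown squares). Filled symbols are called genes, and dashed lines mark a 2-fold change. Most points lie left of 0, Abcd2 with induction lies farthest left (-1.93) and Pex11a without induction farthest right (1.39).

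The induction change, with its sign, was fitted lower in spheroids than in flat culture for 28 of the 32 genes, against 47.1% of all genes. They included 19 of 23 mitochondrial and 8 of 8 peroxisomal genes, and Scp2 alone was called. The median difference was -0.22 for mitochondrial and -0.39 for peroxisomal genes, beside 0.02 over all genes. Of single values, Abcd2 stood at -1.12 ± 0.34 (adjusted p = 0.393) and Crat at -0.64 ± 0.15 (adjusted p = 0.221), neither past the test.

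The 2 spheroid induced libraries differed in these genes. Replicate 2 was above replicate 1 in 25 of 32 genes (78.1%), against 49.1% of all tested genes, with a median difference of 0.20 on the log2 scale. The adipocyte marker sum was also higher in replicate 2 (2691 CPM) than in replicate 1 (1555 CPM). Its largest part was Fabp4, with 842 CPM in replicate 1 and 1743 CPM in replicate 2. Plin1 alone of these markers went the other way, with 116 CPM in replicate 1 and 107 CPM in replicate 2. Without replicate 1 the induction calls in spheroids were 5, with Abcd2, Ech1 and Hadhb beside Acadm and Pex11a. Leaving out any other single library gave 0 calls by edgeR, with 20 to 24 genes higher at an unadjusted p under 0.05. Fitting the 4 spheroid libraries alone gave 0 calls, with 17 higher at an unadjusted p. In flat culture Acadvl, Cpt2, Hadhb and Pex14 lost their calls without any 1 of the 4 flat libraries, and Ech1 without 3 of them, while Crat, Acadm, Hadh, Scp2, Abcd2 and Pex11a kept theirs in each such fit. With DESeq2, Acadvl and Pex14 were not called.

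Levels of different genes can be set side by side only per length of transcript. In CPM per kilobase of the principal transcript, Ech1 was the highest in 2D induced cells, with means of 101 in 3D induced, 54.2 in 3D uninduced, 151 in 2D induced and 74.1 in 2D uninduced cells. Etfa was next in 2D induced cells, with 94.2 in 3D induced, 60.4 in 3D uninduced, 128 in 2D induced and 70.1 in 2D uninduced cells. Of the peroxisomal genes Scp2 led in 2D induced cells with 92.1, while in 3D induced cells the thiolase Acaa1a did, with 72.2, against 38.8 for Scp2. Abcd2 was low per length in every group, from 1.15 in 3D uninduced to 9.11 in 2D induced cells. The order of Scp2 and Acaa1a thus differed between the induced cultures. That order rests on 1 transcript length per gene, although Scp2 makes more than 1 form. Of the 50-base stretches, 29.7% of Scp2 and 12.9% of Acaa1a also occur in other genes.

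A list of 75 further genes of the pathway held 66 that were tested. On induction 3 were called higher in spheroids and 10 in flat culture, with 0 lower in either by edgeR. The shares over all genes were 0.583% higher and 0.328% lower in spheroids, and 3.17% higher and 1.34% lower in flat culture. The median was 0.24 in spheroids and 0.37 in flat culture. With induction 1 was called higher and 8 lower in 3D than in 2D cells, against 6.94% and 5.46% of all genes. Catalase (Cat), which clears the peroxide that peroxisomal oxidation makes, had 173 and 190 CPM in 3D induced, 77.4 and 99 CPM in 3D uninduced, 250 and 271 CPM in 2D induced, and 107 and 104 CPM in 2D uninduced libraries. It rose in both forms, by 1.04 ± 0.14 in spheroids (adjusted p = 0.0174) and 1.30 ± 0.14 in flat culture (adjusted p = 0.00152). The peroxin Pex16, which places peroxisomal membrane proteins, had 21.5 and 26.5 CPM in 3D induced, 12.7 and 12.9 CPM in 3D uninduced, 57.6 and 57.1 CPM in 2D induced, and 16.6 and 15 CPM in 2D uninduced libraries. It rose by 1.86 ± 0.15 in flat culture (adjusted p = 0.000358) and was lower in 3D than in 2D induced cells, at -1.26 ± 0.14 (adjusted p = 0.00128). Hacl1, which cleaves branched chains in α-oxidation, was also lower there, at -1.26 ± 0.23 (adjusted p = 0.00661).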

How the data were processed

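Raw read counts per Ensembl gene for 8 libraries were used as deposited by the authors, in 4 groups of 2. Per the submitters' processing notes, the tools were featureCounts 1.6.3, HISAT2 2.1.0 (build mm10), Trimmomatic 0.38 and FastQC 0.11.7. The sources used here do not give the settings, the annotation release or the strand setting. The kit was directional, per the labels' protocols. Columns of the 2D uninduced group carry other replicate numbers in the table than in the sample titles, whose numbers were kept. Symbols were matched for 49326 of 49585 genes, and 0.0285% of the counts lay in unmatched genes.

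The filter was filterByExpr (minimum count 10), which left 15255. TMM gave the library sizes. The robust quasi-likelihood model of edgeR 4.0.16 (R 4.3.3, limma 3.58.1) had 1 mean per group, all 8 libraries, 4 residual degrees of freedom, a median of 3.73 prior degrees of freedom and a common dispersion of 0.029. It gives all groups 1 spread per gene, although the biological coefficients of variation were 0.327 in 3D induced, 0.111 in 3D uninduced, 0.0473 in 2D induced and 0.0469 in 2D uninduced libraries. The 5 comparisons tested were induction in 3D and in 2D, 3D against 2D with and without induction, and the difference of the inductions. The spheroid and flat comparisons share libraries with the inductions. Standard errors were taken as |log2 fold change|/√F. The procedure was tested on simulated data for induction in 2D only, with changes past 2-fold and 1 spread per gene in all groups. That simulation did not cover the other comparisons or unequal spreads between groups. DESeq2 1.42.0, limma-voom with group weights, no filter, the compared libraries alone, a replicate block and leaving out each library were tried, and library totals without TMM were added after seeing the data.

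Genes called in at least 1 comparison are given with every library's value, others by ranges with examples. The members, the lists and the rule were chosen with earlier results of these data known. Each member was counted in 1 compartment only, and whether its product also works in another was not examined. Genes overlapping or copying a member were named because its counts could depend on them. Positions and exon overlaps are those of GENCODE vM21 (GRCm38), and promoter sequences are those of RefSeq (GRCm38.p6).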

Additional observations from a re-analysis of the deposited data

Results flagged for a closer look

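Scp2, the gene of sterol carrier protein and the branched-chain thiolase, met the test of a difference between the inductions: its change was 0.25 in spheroids and 1.29 in flat culture, and the difference was -1.04 ± 0.14 (log2, edgeR adjusted p = 0.0296). Its levels were 101 and 104 CPM in 3D induced, 83 and 89.5 CPM in 3D uninduced, 240 and 247 CPM in 2D induced, and 100 and 99.1 CPM in 2D uninduced libraries. The copy Scp2-ps2 gave a difference of -1.24 (adjusted p = 0.126). The Scp2 call was lost without any 1 of the 6 libraries outside the 3D induced group.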

How the results depend on the processing

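Counts of called genes are over the 32 tested members. Without the 2-fold threshold they were 7 for induction in 3D, 22 for induction in 2D, 18 and 9 for 3D against 2D with and without induction. Fitting only the 4 libraries compared gave 0 for induction in 3D, and library totals without TMM gave 1. Without TMM the medians for 3D against 2D were -0.23 (peroxisomal, induced), -0.08 (mitochondrial, uninduced) and 0.06 (peroxisomal, uninduced). For the difference of inductions, 1 call as reported became 2 with DESeq2, without the filter, with limma-voom and without TMM, Pex11a beside Scp2 in each.

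Leaving out each library gave 0 to 5 calls for induction in 3D, 6 to 11 for induction in 2D, 3 to 6 and 2 to 4 for 3D against 2D with and without induction, and 0 to 3 for the difference. Medians then ran from 0.82 to 0.87 (mitochondrial) and 0.63 to 0.67 (peroxisomal) for induction in 2D, from -0.66 to -0.28 (mitochondrial, 3D against 2D induced), and from -0.22 to -0.02 (peroxisomal, 3D against 2D uninduced). A group left with 1 library was taken to vary like the others.

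The replicate numbers do not pair the libraries: deviations of same-numbered libraries correlated between -0.00619 and 0.0265, except 0.206 for 3D induced and 3D uninduced. With the replicate number as a block the count for the difference was 0, since the Scp2 call was lost, and those of the other comparisons did not change.

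Uncalled values near 0 changed sign. Hadhb between uninduced forms, 0.00 as reported, was -0.01 with DESeq2, without the filter and with 4 libraries, -0.00 with the block, and -0.11 to 0.10 on leaving out libraries. Without TMM, Crat and Pex14 there were 0.04 and 0.08. On leaving out libraries, Cpt2 there ran from -0.01 to 0.36, Acot2 on induction in 3D from -0.22 to 0.60, and in the difference Cpt1a from -0.10 to 0.31, Acadm from -0.35 to 0.07 and Acot2 from -0.06 to 0.75. The cause was not tested. Cpt1b (17 counts) and Ehhadh (4 counts) were too low to test.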

Other observations

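Among regulators of oxidation outside the 34 genes, 14 of 16 were tested, and 2 were called higher on induction in spheroids and 4 in flat culture, against 0.583% and 3.17% of all genes. Ppargc1b, a coactivator of mitochondrial genes, had 5.48 and 4.33 CPM in 3D induced, 1.18 and 1.6 CPM in 3D uninduced, 10.2 and 9.73 CPM in 2D induced, and 2.04 and 1.51 CPM in 2D uninduced libraries. It rose by 1.81 ± 0.29 in spheroids and by 2.47 ± 0.28 in flat culture (edgeR adjusted p = 0.0316 and 0.00194). Its relative Ppargc1a ran from 13.2 to 29.7 CPM and was not called. Nr1h3, the liver X receptor α, had 31.3 and 34.8 CPM in 3D induced, 16.3 and 14.5 CPM in 3D uninduced, 30.5 and 30.0 CPM in 2D induced, and 6.97 and 7.31 CPM in 2D uninduced libraries. Like Pex11a, it was called higher on induction in both forms and higher in 3D than in 2D uninduced cells (1.11 ± 0.14, adjusted p = 0.00273). Ppara, the receptor that drives the pathway in liver, had at most 0.21 CPM in any library.

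Pdk1, a kinase of pyruvate dehydrogenase that hypoxia is known to induce, had 62.8 and 50.3 CPM in 3D induced, 42.8 and 50.8 CPM in 3D uninduced, 205 and 216 CPM in 2D induced, and 98.8 and 98.6 CPM in 2D uninduced libraries. It was lower in spheroids than in flat culture with induction, at -1.90 ± 0.14 (edgeR adjusted p = 0.000363), and without, at -1.08 ± 0.14 (adjusted p = 0.00271). Lpin1, the phosphatidate phosphatase that also acts as a coactivator of oxidation genes, had 27.3 and 25.1 CPM in 3D induced, 15.9 and 21.6 CPM in 3D uninduced, 67.0 and 64.3 CPM in 2D induced, and 15.8 and 19.7 CPM in 2D uninduced libraries. It rose by 1.89 ± 0.18 in flat culture (adjusted p = 0.00104), and 0.48 ± 0.18 in spheroids did not pass (adjusted p = 0.314). Sirt1, a deacetylase, was the 1 gene of the further list called higher in 3D than in 2D induced cells, at 1.12 ± 0.27 (adjusted p = 0.02), with 13.9 and 24.3 CPM against 9.47 and 8.12 CPM.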
